A study of Mus musculus with 3 samples.

Results

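Heparan sulfate is a long sulfated sugar chain that cells attach to a small set of core proteins, and the chain binds growth factors, morphogens and chemokines at the cell surface. Syndecans are the core proteins that cross the membrane, glypicans are the core proteins held to it by a lipid anchor, and the sulfatases Sulf1 and Sulf2 are secreted enzymes that remove 6-O-sulfate groups from finished chains and so alter which ligands the chains hold. Fibroblasts use these molecules in adhesion to the matrix and in reception of FGF, Wnt and TGF-β family ligands.

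The members examined were 10 genes, selected by symbol with earlier results of these data known: the syndecans *Sdc1*, *Sdc2*, *Sdc3* and *Sdc4*, the glypicans *Gpc1*, *Gpc3*, *Gpc4* and *Gpc6*, and the sulfatases *Sulf1* and *Sulf2*. They are 10 of the 15554 rows of a gene expression table, and each has 1 row. The table gives FPKM (fragments per kilobase of transcript and per 1000000 mapped fragments, a level that accounts for gene length) in NIH3T3 cells, an immortalized mouse embryonic fibroblast line. The cells were kept in serum-free medium and then either left without stimulation (CTRL), or stimulated for 24 h with 100 ng/mL GDF15, a distant member of the TGF-β superfamily, or with 4 ng/mL TGF-β. The question was whether fibroblasts respond to GDF15 as they do to TGF-β. All 3 libraries come from the same line under the same serum withdrawal, and each treatment is 1 library made from RNA of 3 samples pooled before sequencing. There is therefore no replicate check of any difference, no test was made and no p-value is given.

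Differences are given as changes, the difference of log2(FPKM + 1) between 2 libraries, a scale that compresses differences between low FPKM values, and as ratios of FPKM where both values are above 0. Both stimulated libraries are compared with the same CTRL library, so the comparisons with CTRL are not independent of each other. The depth, which the table does not state, was estimated from the step between the lowest values of genes with 1 coding transcript as 16.95 for the CTRL library, 19.85 for the GDF15 library and 16.25 for the TGF-β library, in units of 1000000 fragments. Intervals below are 95% exact intervals built on those estimates and cover counting error only. Those of a level are Poisson intervals, and those of a ratio are binomial intervals on the fragments of the 2 libraries. Fragment numbers assume the longest coding transcript of each gene. Genes are called expressed here where their FPKM averages 1 or more over the libraries. Of 10 fibroblast marker genes, 9 were expressed, with *Lum* at or near 0, and their FPKM sum was 12700 without stimulation, 13090 with GDF15 and 11950 with TGF-β. The markers of 3 other cell types were low: the sums were at most 0.735 for 6 epithelial genes, 0.329 for 4 endothelial genes and 1.85 for 5 leukocyte genes.

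The results turn on *Sulf1* and *Sulf2*, 2 enzymes of the same fold and activity, so the coding bases around the active site are printed to show how alike and how distinguishable the genes are. These are bases 232-300 of the 2613 coding bases of *Sulf1* and bases 235-303 of the 2628 of *Sulf2*, from the GENCODE M21 transcripts on the GRCm38 build. The capitals mark the 5 codons of the sulfatase signature (Cys, any residue, Pro, Ser, Arg), whose cysteine is converted to the formylglycine that carries out catalysis.
Sulf1: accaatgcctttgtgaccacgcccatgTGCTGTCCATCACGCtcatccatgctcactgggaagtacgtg
Sulf2: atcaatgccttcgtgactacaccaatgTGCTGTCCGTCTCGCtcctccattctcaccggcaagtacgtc
Of these 69 bases, 57 are identical, and 13 of the 15 in capitals. Over the whole coding sequences the longest run of bases shared by both genes is 20, against reads of 50 bases, and none of the 8083 different 50-base words of *Sulf1* transcripts occurs in the transcripts of another gene.

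The syndecans are shown by their last coding bases, the part by which the family is recognised. The capitals mark the last 4 codons, Glu-Phe-Tyr-Ala in all 4 genes, the tail that binds PDZ domain proteins such as syntenin.
Sdc1: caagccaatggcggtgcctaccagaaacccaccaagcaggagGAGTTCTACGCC
Sdc2: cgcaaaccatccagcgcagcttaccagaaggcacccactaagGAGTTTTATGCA
Sdc3: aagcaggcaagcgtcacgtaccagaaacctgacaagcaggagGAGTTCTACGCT
Sdc4: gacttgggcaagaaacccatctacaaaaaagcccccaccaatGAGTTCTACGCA
Compared base by base back from the stop with no gaps, *Sdc1* and *Sdc3* have the most identical bases of the 6 pairs, 37 of 54. *Sdc1* and *Sdc2* have the fewest, 19, and a stretch shifted by a codon counts as different here. The longest shared coding run was 29 bases among the syndecans (*Sdc3* and *Sdc4*) and 17 among the glypicans (*Gpc4* and *Gpc6*), and no 50-base word was shared between any of the 10 genes. A read of 50 bases from 1 member can therefore be assigned apart from the other members.

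In the unstimulated cells 1 glypican and 1 sulfatase gene made up nearly all of their families, whereas 3 syndecans were expressed. The highest was *Sdc2* with 137.2 FPKM, followed by *Gpc1* with 85.4, *Sulf2* with 62.4, *Sdc4* with 54.4 and *Sdc1* with 26.8. Far lower were *Sulf1* with 0.271 and *Sdc3* with 0.134 FPKM, and *Gpc3*, *Gpc4* and *Gpc6* were listed at 0. The neighbours in this order from *Sdc2* to *Sulf1* had counting intervals that did not overlap, whereas those of *Sulf1* (0.177 to 0.398) and *Sdc3* (0.0671 to 0.240) did. In both stimulated libraries *Sulf2* stood above *Gpc1*, which is the only exchange of places in the order among the 7 genes with a level in every library. In GDF15 those values were 71.8 and 70.1 FPKM with overlapping intervals, and in TGF-β they were 73.7 and 60.9 FPKM with intervals apart.

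**Figure D1:**
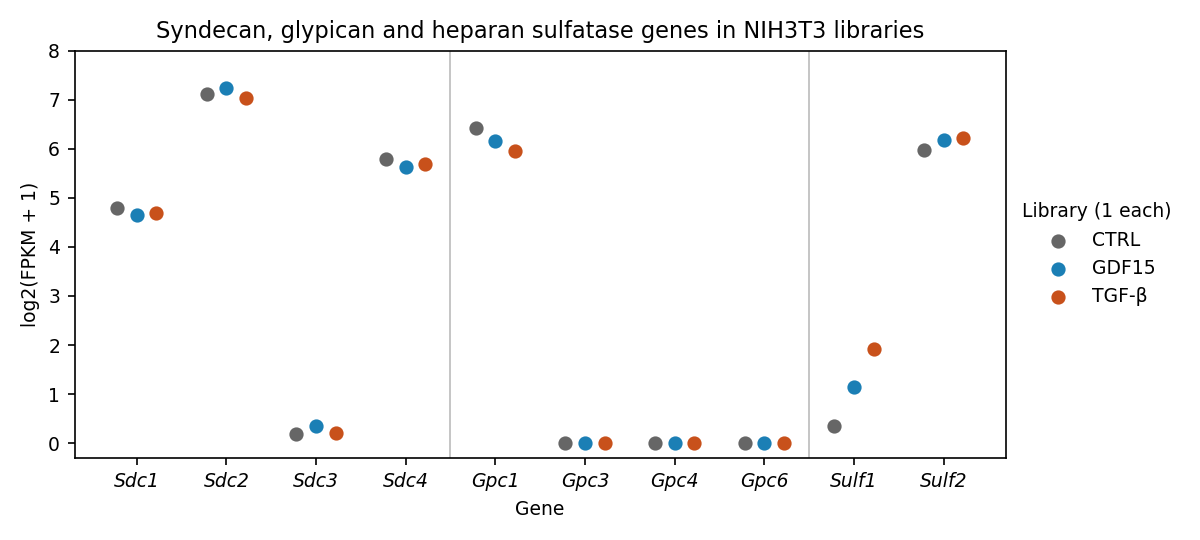
FPKM of the 10 genes in the 3 libraries, plotted as log2(FPKM + 1), with 1 point per library (CTRL grey, GDF15 blue, TGF-β orange) and vertical lines between syndecans, glypicans and sulfatases. *Sulf1* steps up from 0.271 to 1.20 and 2.80 FPKM while *Gpc3*, *Gpc4* and *Gpc6* lie at or next to 0 in every library.

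The sulfatase genes showed the difference that stands out among the members. *Sulf1* (chr1:12692277-12861192, plus strand, GRCm38) had 0.271 FPKM in the unstimulated library, 1.20 with GDF15 and 2.80 with TGF-β, from an estimated 26, 134 and 254 fragments. The counting intervals of the 3 libraries, 0.177 to 0.398, 1.01 to 1.43 and 2.46 to 3.16 FPKM, do not overlap. The change was 0.79 in GDF15 against CTRL, a ratio of 4.43 (2.90 to 7.03), and 1.58 in TGF-β against CTRL, a ratio of 10.3 (6.87 to 16.1). Between the stimulated libraries the level in TGF-β was 2.32 times that in GDF15 (1.88 to 2.89), a change of 0.79. The ratios are far larger than the changes because the level in CTRL is below the 1 FPKM added before the logarithm.

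Among the 9226 expressed genes, *Sulf1* ranked 55 from the top in GDF15 against CTRL, 28 in TGF-β against CTRL and 29 in TGF-β against GDF15. *Sulf1* is in that set only through the stimulated libraries, since its CTRL value is under 1 FPKM, so that these ranks are a description and support nothing. The local spread, a robust standard deviation (from the median absolute deviation) of the changes among genes of nearest mean level, was 0.226, 0.275 and 0.175 in those comparisons, given as a description with the same limit. Even in TGF-β only 46.9% of all rows had a lower value than *Sulf1*, which makes it a gene of low level in every library. Levels in pooled libraries do not tell a small level in all cells from a higher level in a few.

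*Sulf2* (chr2:166073089-166155663, minus strand), the sulfatase that makes up nearly all of the pair, had 62.4, 71.8 and 73.7 FPKM, with the unstimulated library lowest. The ratio to CTRL was 1.15 (1.11 to 1.20) in GDF15 and 1.18 (1.14 to 1.23) in TGF-β, with changes of 0.20 and 0.24, and neither reached 1.5-fold. The stimulated libraries differed by 0.04, with a ratio of 1.03 and an interval of 0.991 to 1.07 that includes equality. *Sulf1* thus made up 0.434%, 1.65% and 3.65% of the FPKM sum of both genes in CTRL, GDF15 and TGF-β, and *Sulf2* was 229.7, 59.7 and 26.4 times as high as *Sulf1*. The sum itself, which follows *Sulf2*, was 62.6, 73.0 and 76.5 FPKM. Of the *Sulf2* 50-base words, 2.03% are shared with *Ncoa3*, a nuclear receptor coactivator gene on the opposite strand, whose exons overlap those of *Sulf2* by 154 bases and whose level was lower after stimulation (14.9, 13.2 and 10.7 FPKM).

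**Figure D2:**
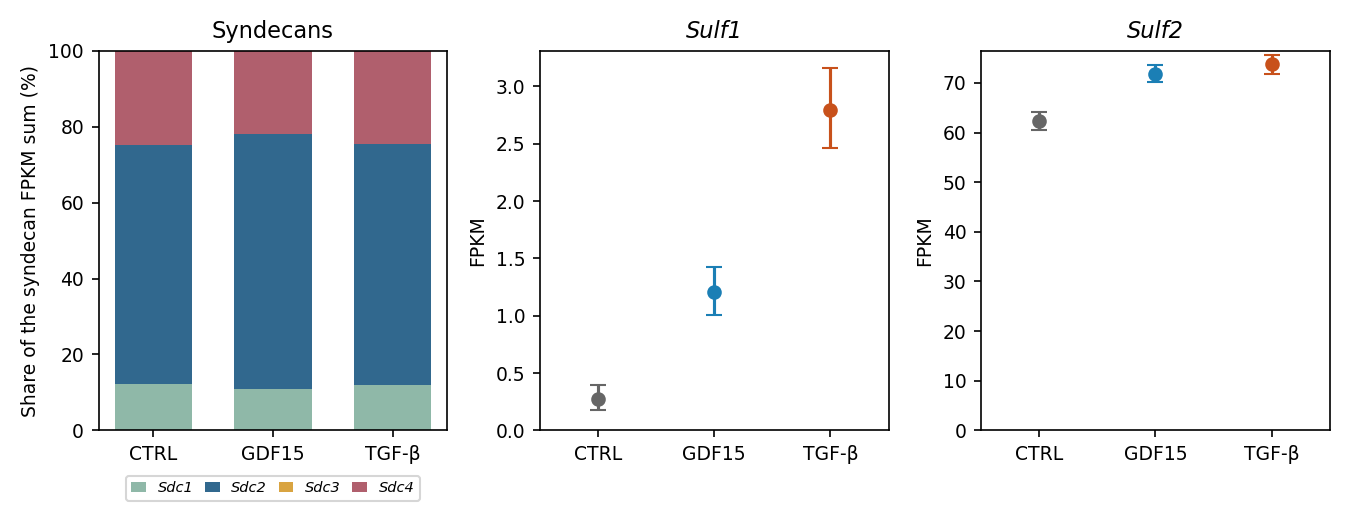
Left, share of the summed syndecan FPKM taken by each syndecan gene (percent) in each library, with *Sdc3*, at most 0.121%, too thin to see. Middle and right, FPKM of *Sulf1* and *Sulf2* with 95% counting intervals, 1 library per treatment; the axes start at 0 and differ in range, with *Sulf1* reaching 2.80 and *Sulf2* 73.7 FPKM.

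The expressed syndecans *Sdc1*, *Sdc2* and *Sdc4* differed from CTRL by at most 0.16 on the log2 scale, with counting intervals of the ratios that did not include equality. *Sdc2* (chr15:32920723-33034935, plus strand), the main syndecan of mesenchymal cells, had 137.2, 149.7 and 130.1 FPKM in CTRL, GDF15 and TGF-β, above 97.9%, 98.2% and 97.8% of all rows. GDF15 is the highest of the 3 and TGF-β the lowest. The ratio to CTRL was 1.09 (1.06 to 1.12) in GDF15 and 0.948 (0.919 to 0.979) in TGF-β, and the change in GDF15, 0.13, was 0.02 once length and GC trends were removed. Between the stimulated libraries the change was -0.20 and the ratio 0.869 (0.844 to 0.895), past 1 local spread (0.173) and of the same size as that of *Gpc1*, also 0.869. *Sdc4* (chr2:164424247-164443887, minus strand), the syndecan of focal adhesions and a partner of fibronectin, had 54.4, 48.6 and 50.6 FPKM, with ratios to CTRL of 0.893 (0.843 to 0.947) and 0.930 (0.876 to 0.988). *Sdc1* (chr12:8771323-8793715, plus strand), which is known best from epithelia and plasma cells, had 26.8, 24.0 and 24.8 FPKM, with ratios of 0.896 (0.833 to 0.964) and 0.924 (0.856 to 0.997). Both were highest in CTRL. *Sdc1*, *Sdc2* and *Sdc4* stayed within 1 local spread of the local median in both comparisons with CTRL.

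*Sdc3* (chr4:130792537-130826319, plus strand), the syndecan of nervous system and muscle precursors, was near the limit of detection with 0.134, 0.269 and 0.153 FPKM. These values stand for an estimated 11, 27 and 12 fragments, and the ratio of GDF15 to CTRL, close to 2, has a counting interval of 0.961 to 4.47 that includes equality. Of its 50-base words, 6.32% are shared with an antisense gene. In shares of the syndecan sum (218.5, 222.6 and 205.6 FPKM), *Sdc2* took 62.8%, 67.3% and 63.3% (CTRL, GDF15, TGF-β), *Sdc4* took 24.9%, 21.8% and 24.6%, and *Sdc1* took 12.3%, 10.8% and 12.1%. The share of *Sdc3* was at most 0.121%. Weighted by transcript length the share of *Sdc2* was 68.9%, 72.9% and 69.3%.

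The glypicans came down to a single gene. *Gpc1* (chr1:92831645-92860779, plus strand), the glypican of many adult cell types and a coreceptor for FGF2, had 85.4, 70.1 and 60.9 FPKM in CTRL, GDF15 and TGF-β, above 96.4%, 95.5% and 94.5% of all rows. It was highest in CTRL and lowest in TGF-β, with intervals that do not overlap (83.3 to 87.6, 68.3 to 71.9 and 59.1 to 62.8). The level was 17.9% lower in GDF15 than in CTRL, a change of -0.28, and 28.6% lower in TGF-β, a change of -0.48. These changes ranked 1221 and 507 from the lowest among 9226 genes, and neither reached 1.5-fold. The distance from the local median was within 1 local spread in GDF15 (0.226) and past it in TGF-β (0.210). A share of 22.5% of the *Gpc1* 50-base words also lies in *Ankmy1* on the opposite strand, a gene listed at 0.0176, 0 and 0 FPKM. Whether strand was used in counting is not given in the sources used here.

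*Gpc3* (chrX:52272426-52613950) and *Gpc4* (chrX:52053021-52165252), neighbours on the minus strand of the X chromosome and both active in embryonic growth, were listed at 0 in all 3 libraries. A floor of 3 fragments, used for genes listed at 0 in place of an interval, corresponds to 0.0799, 0.0682 and 0.0833 FPKM for *Gpc3* and 0.0668, 0.0570 and 0.0696 FPKM for *Gpc4* in CTRL, GDF15 and TGF-β. *Gpc6* (chr14:116925315-117976544, plus strand), a glypican of skeletal growth, was listed at 0 in CTRL and TGF-β and at 0.00701 FPKM in GDF15, which is under 1 estimated fragment and under the floor of 0.0433 FPKM. None of them was detectable at this depth. *Gpc1* therefore made up 100%, 99.99% and 100% of the summed FPKM of the 4 glypicans.

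Counted together on the log2(FPKM + 1) scale, 1 of the 10 members differed by over 2-fold from CTRL in TGF-β (*Sulf1*), and 0 did in GDF15 or between the stimulated libraries. On the ratio of FPKM *Sulf1* was past 2-fold in all 3 comparisons, as given above, and *Sdc3* just past it in GDF15. The background over all 15554 rows was 0.913% in TGF-β, 0.289% in GDF15 and 0.103% between them. At a fold of 1.5, among the 6 expressed members (*Sdc1*, *Sdc2*, *Sdc4*, *Gpc1*, *Sulf1* and *Sulf2*), *Sulf1* was the 1 gene higher in each comparison, against 1.27% of 9226 genes in GDF15, 2.54% in TGF-β and 0.91% in TGF-β against GDF15. *Sulf1* passed the minimum mean only through the libraries where it is high, so its count is read no further. None of the 6 was lower by that fold, against 1.55%, 3.06% and 0.629% of genes. Of the 6, 3 were higher and 3 lower in GDF15, and 2 were higher and 4 lower in TGF-β. Their median change was -0.01 in GDF15 and -0.09 in TGF-β, beside -0.03 and -0.07 over the 9226 genes. Over all 10 members and over all rows the median was 0 in TGF-β.

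**Figure D3:**
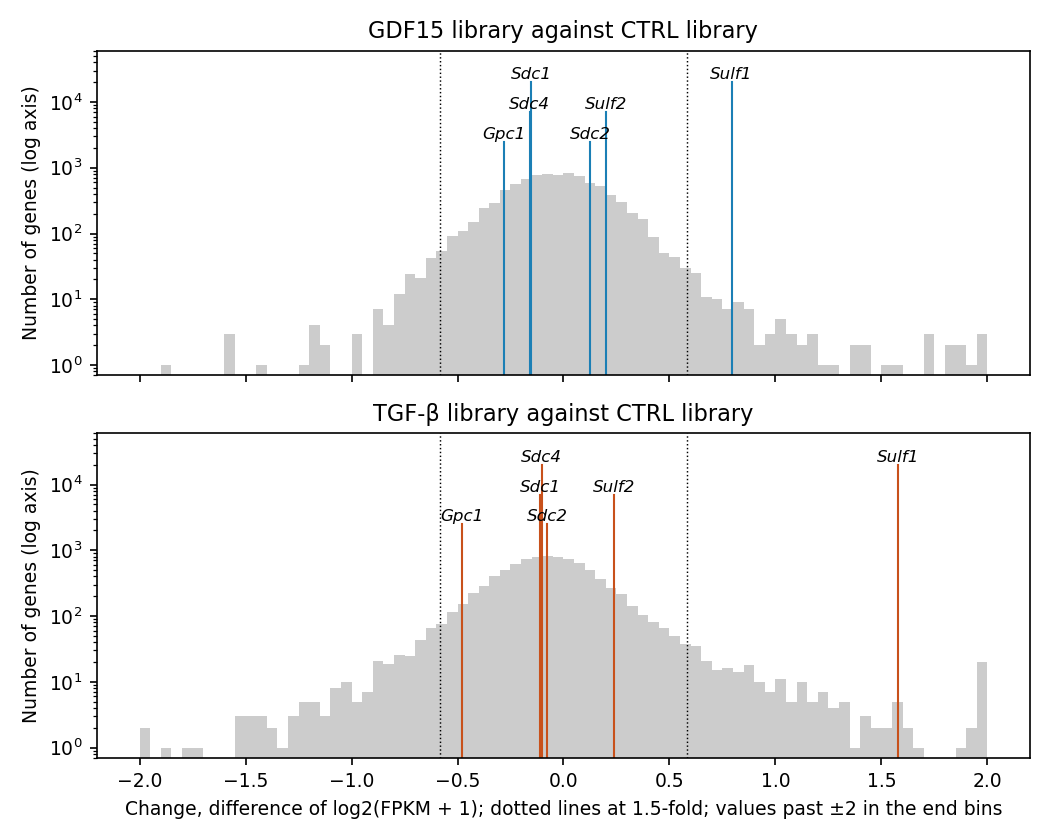
Histograms of the change from CTRL, in log2(FPKM + 1), of the 9226 expressed genes, in the GDF15 library (top) and the TGF-β library (bottom), with a log axis for the number of genes. Coloured lines mark the 6 members in that set, and only *Sulf1*, at 0.79 and 1.58, lies past the dotted lines at 1.5-fold.

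A trend with transcript length ran through the libraries. Over the 5404 genes whose FPKM averaged 10 or more, Spearman's rho between length and change, a description across genes that share libraries, was 0.521 for GDF15 against CTRL, 0.264 for TGF-β against CTRL and -0.362 for TGF-β against GDF15. *Sulf1* has the longest transcript of the members, 5598 bases. With the length trend removed its change was 0.72 in GDF15, 1.60 in TGF-β and 0.88 between them, and that of *Gpc1* was -0.30 and -0.43 from CTRL.

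The genes around the members were taken from 9 lists covering other proteoglycans, the synthesis and breakdown of heparan sulfate, shedding, ligands and chondroitin sulfate, written with earlier results of these data known. Of 116 genes listed, 111 were in the table and 72 were expressed. Over 1.5-fold, 2 of the 72 were higher and 0 lower in GDF15, beside 1.27% and 1.55% of all expressed genes, and 3 were higher and 3 lower in TGF-β, beside 2.54% and 3.06%. In TGF-β against GDF15, 0 were higher and 1 lower, beside 0.91% and 0.629%. These counts are on the log2(FPKM + 1) scale, and 1 of the 3 lower genes in TGF-β, *Mmp9*, averaged 1 FPKM only through its CTRL value.

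**Figure D4:**
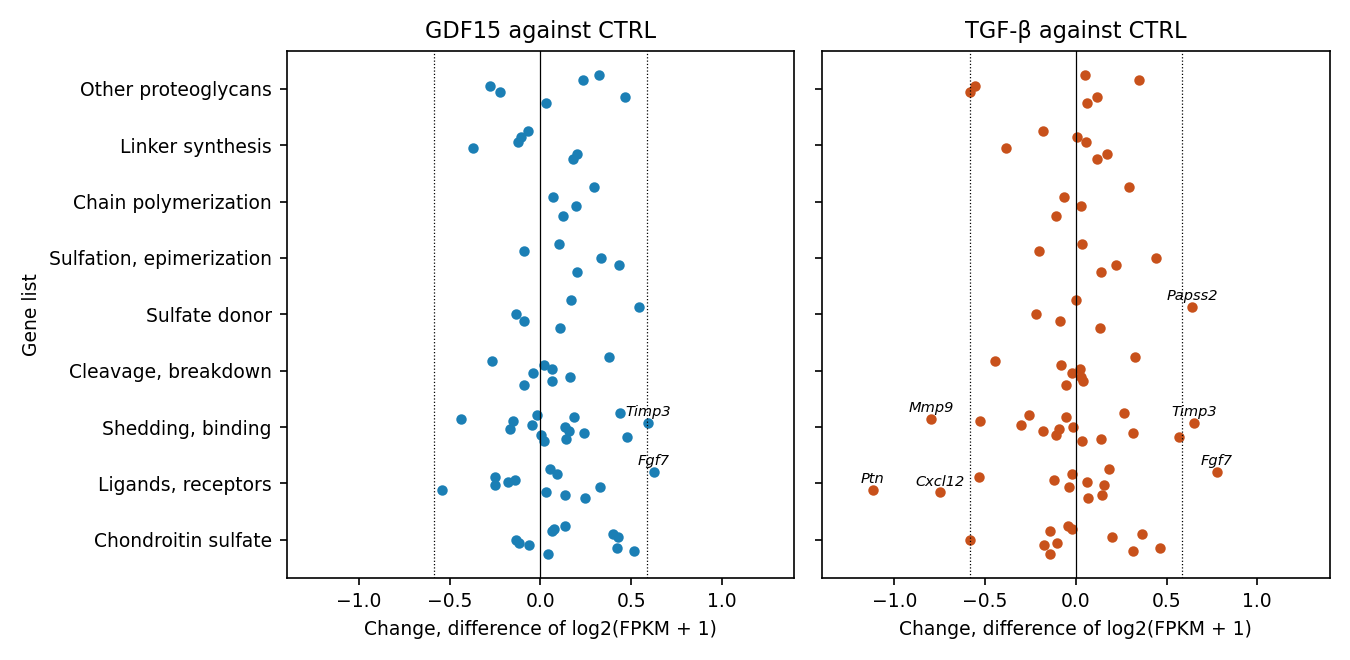
Change from CTRL, in log2(FPKM + 1), of the 72 expressed list genes, by list, in GDF15 (left) and TGF-β (right), with 1 point per gene and dotted lines at 1.5-fold. The genes past the lines are named: *Timp3* and *Fgf7* on the left, and *Papss2*, *Timp3*, *Fgf7*, *Ptn*, *Cxcl12* and *Mmp9* on the right.

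The expressed genes of the 3 lists that build and modify the chains all stayed under 1.5-fold from CTRL. In the list of linker synthesis, 6 of 7 genes were expressed, with a median change of -0.09 in GDF15 and 0.03 in TGF-β. *B3gat3*, which adds the glucuronic acid that ends the linker, had 25.7, 19.6 and 19.5 FPKM in CTRL, GDF15 and TGF-β. Its changes of -0.37 and -0.38 were -0.14 and -0.15 once length and GC trends were removed. *Fam20b*, the xylose kinase, had 15.1, 17.5 and 17.1 FPKM. In the list of chain polymerization, 4 of 5 genes were expressed, with medians of 0.16 and -0.02. *Ext1* had 94.3, 116.2 and 115.7 FPKM and *Ext2*, the other subunit of the polymerase, 48.3, 50.8 and 46.0. Among the genes of N-sulfation, epimerization and O-sulfation, 5 of 15 in the table were expressed, with medians of 0.20 and 0.14. *Ndst1*, the first modifying enzyme, had 19.2, 20.6 and 19.7 FPKM, and *Glce*, the epimerase, 9.97, 12.8 and 13.9. *Hs6st1*, which adds the 6-O-sulfate that the sulfatases remove, is named after its values were seen, with 9.36, 10.9 and 10.4 FPKM.

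The supply of sulfate held 1 gene past 1.5-fold among 5 expressed. *Papss2*, which makes the sulfate donor PAPS, had 14.6, 21.8 and 23.4 FPKM in CTRL, GDF15 and TGF-β, a change of 0.54 in GDF15 and of 0.64 in TGF-β. The change in TGF-β was over 1.5-fold, and that in GDF15 lay just under and passed it (0.59) with the running median by expression removed. *Papss1*, the other synthase gene, named after its values were seen, had 22.2, 25.1 and 22.3 FPKM. In the list of cleavage and lysosomal breakdown, 8 of 10 genes in the table were expressed and none passed 1.5-fold. *Sumf1*, which makes the formylglycine of all sulfatases, had 27.9, 29.3 and 28.7 FPKM. *Hpse*, the heparanase, and *Hpse2* were listed at 0 in all 3 libraries.

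Shedding and binding of the core proteins showed 1 gene higher and 1 lower in TGF-β among 15 expressed. *Timp3*, a matrix-bound inhibitor of metalloproteinases that itself binds heparan sulfate, had 161.1, 243.9 and 254.0 FPKM in CTRL, GDF15 and TGF-β, with changes of 0.60 and 0.65. *Mmp9*, a gelatinase that can shed syndecans, had 1.60, 0.921 and 0.496 FPKM, with changes of -0.44 and -0.80. *Timp3* was over 1.5-fold higher in both stimulated libraries, and *Mmp9* was over 1.5-fold lower in TGF-β. Without the added 1 FPKM the ratio of *Mmp9* to CTRL was 0.575 in GDF15, past 1.5-fold, and 0.310 in TGF-β, past 2-fold. Removing the length trend took *Timp3* under that fold in GDF15, to 0.55, and not in TGF-β (0.69).

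Of the ligands and receptors, 12 of 25 genes were expressed, with 1 higher and 2 lower by over 1.5-fold in TGF-β. *Fgf7*, a heparin-binding growth factor that fibroblasts make for epithelia, had 9.26, 14.8 and 16.6 FPKM in CTRL, GDF15 and TGF-β, with changes of 0.62 and 0.78. *Ptn*, pleiotrophin, a heparin-binding cytokine that also binds syndecans, had 71.0, 48.4 and 32.1 FPKM, with changes of -0.54 and -1.12. *Cxcl12*, a chemokine held on heparan sulfate, had 2.72, 2.80 and 1.21 FPKM, with changes of 0.03 and -0.75. *Ptn* was lowest in TGF-β and past 2-fold there, and *Cxcl12* was the 1 list gene over 1.5-fold lower in TGF-β than in GDF15 on this scale, with a change of -0.78. Without the added 1 FPKM the ratios of TGF-β to GDF15 for *Mmp9* (0.539) and *Ptn* (0.663) also passed 1.5-fold. On the same measure the ratio of TGF-β to CTRL for *Cxcl12* was 0.445, past 2-fold. For *Fgf7* in GDF15 the change was 0.51, under 1.5-fold, once length and GC trends were removed.

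Among other heparan sulfate proteoglycans, 6 of 12 genes were expressed and none passed 1.5-fold. *Hspg2*, the basement membrane proteoglycan perlecan, had 120.7, 151.5 and 125.2 FPKM in CTRL, GDF15 and TGF-β, a level near that of *Sdc2*. *Cd44*, which can carry the chain on splice variants, had 45.6, 46.6 and 47.7 FPKM. *Tgfbr3*, betaglycan, a TGF-β coreceptor, is named after its values were seen: it had 45.7, 39.1 and 30.2 FPKM, and its change of -0.58 in TGF-β lay just short of 1.5-fold, with a ratio of FPKM of 0.661. *Col18a1*, the basement membrane collagen that carries heparan sulfate, also named after its values were seen, had 1.71, 1.23 and 0.845 FPKM. Its ratio to CTRL in TGF-β was 0.493, over 2-fold lower, and its change with the added 1 FPKM was -0.56. *Gpc2* had at most 0.0198 FPKM and *Gpc5* was listed at 0, which leaves *Gpc1* as the glypican gene with a measurable level in these cells. In the list of chondroitin and dermatan sulfate synthesis, the chains that syndecans may also carry, 11 of 14 genes in the table were expressed and none passed. *Chst12* had 34.2, 31.4 and 31.8 FPKM and *Chpf* 29.3, 30.9 and 28.9. In that list the ratio of FPKM to CTRL passed 1.5-fold without the added 1 FPKM for *Chst11* in TGF-β (0.654) and for *Dsel* in GDF15 (1.53), both named after their values were seen.

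The genes whose changes were most like those of *Sulf1* were found by the distance between pairs of changes from CTRL (GDF15 and TGF-β) over 9226 genes in 3 libraries. They were *Krt17* (distance 0.0420), a keratin with 0.442, 1.57 and 3.28 FPKM, *Col12a1* (0.0429), a fibril-associated collagen with 2.0, 4.22 and 8.20, and *Anxa8* (0.0991), an annexin with 58.4, 103.1 and 188.7. That all 3 are lowest in CTRL and highest in TGF-β follows from this selection and is no result. *Krt17*, like *Sulf1*, is under 1 FPKM in CTRL and passed the minimum mean only through the stimulated libraries. The levels differ widely between the 3 genes. The likeness is that of changes with the constant added to FPKM before the logarithm, which compresses the ratios of genes as low as *Sulf1* in CTRL. On the ratio of FPKM to CTRL, *Sulf1* had 4.43 in GDF15 and 10.3 in TGF-β, and all 3 genes had smaller ratios in both. The distance was not computed without the added constant.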

How the data were processed

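RNA of NIH3T3 cells was sequenced as 1 pooled library per treatment from stranded poly(A) libraries read as single 50-base reads. The authors mapped the reads and deposited 1 table of FPKM made with Cufflinks, which keeps the protein-coding genes that have a reviewed UniProt entry. The submitters' processing notes name TopHat 1.3.2, Bowtie 0.12.9, Cufflinks 2.0.2 and mm10. The gene annotation and the use of strand are not given in the sources used here. All 3 FPKM columns were used and 0 others were left out.

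Changes are differences of log2(FPKM + 1). Calls used a fold of 2 (the study's) over 15554 rows and of 1.5 over 9226 rows whose FPKM averaged 1 or more (expressed genes). The local spread is a scaled median absolute deviation over neighbouring genes in mean level. With 1 library per treatment no test was run. Calculations used Python 3.11.15, numpy 2.4.6, pandas 2.3.3 and scipy 1.17.1, and were tested on simulated data. Lengths came from GENCODE M21 for 15471 rows (746 by an older symbol). Named genes were all members, expressed list genes over 1.5-fold from CTRL in either stimulated library (otherwise the 2 of highest mean in a list), and the 3 genes nearest to the member with the largest TGF-β change. Members and lists were chosen with earlier results of these data known. Of the list genes, 5 are not analysed here, and 1 gene that this rule names and 1 group of marker genes are not reported here.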

Additional observations from a re-analysis of the deposited data

How the results depend on the processing

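Among the 6 expressed members no call at 1.5-fold was gained, lost or turned under another pseudocount (0.5, 0.1 or none), a common upper quartile, or removal of the running median by expression, the length trend or the length and GC trends, nor did the counts differ at the main pseudocount when they covered all 10 members with no minimum mean FPKM, an alternative added after seeing the data. *Sdc3*, not among the 6, passed 1.5-fold in GDF15 against CTRL at a pseudocount of 0.1 (0.65) and in TGF-β against GDF15 without one (-0.82). The count over 2-fold in GDF15 against CTRL was 0 as reported, 1 at a pseudocount of 0.5 and 1 at 0.1 (*Sulf1*), and 2 without a pseudocount (*Sulf1* and *Sdc3*, the latter just past 2-fold from an estimated 27 fragments against 11). In TGF-β against GDF15 it was 1 at 0.1 and 1 without a pseudocount (*Sulf1*). The change of *Sulf1* ranged from 0.70 to 2.15 in GDF15, from 1.58 to 3.36 in TGF-β and from 0.79 to 1.22 between them, and that of *Gpc1* from -0.30 to -0.18 and from -0.49 to -0.32 against CTRL. The change of *Sdc2* in GDF15 ranged from 0.02 to 0.24. The signs of the small changes of *Sdc1* and *Sdc2* in TGF-β turned under some settings (ranges -0.12 to 0.02 and -0.11 to 0.003). Of 165 values under alternatives of the members with a local spread above 0 (not *Gpc3*, *Gpc4* and *Gpc6*), 152 stayed within that spread and 13, of *Sulf1* and *Sdc3*, moved past it, and no called member value was reversed. Among the named list genes, the calls at 1.5-fold in GDF15 that differed were those of *Timp3* (0.55 without the length trend, 0.53 without length and GC trends), *Fgf7* (0.51 without length and GC trends), *Papss2* (0.59 without the running median) and *Mmp9* (-0.74 at a pseudocount of 0.1, -0.80 without one). None of the genes named by the rule differed at 1.5-fold in TGF-β against CTRL. At 2-fold in that comparison *Mmp9* passed at a pseudocount of 0.5 (-1.08), at 0.1 (-1.51) and without one (-1.69). *Cxcl12* passed 2-fold there at a pseudocount of 0.1 (-1.11) and without one (-1.17). Of the genes named after their values were seen, *Col18a1*, *Chst11* and *Tgfbr3* in TGF-β and *Dsel* in GDF15 passed 1.5-fold on the ratio of FPKM and not with 1 FPKM added. Of 288 values of the named list genes, 278 stayed within the local spread and 10 moved past it (*Mmp9*, *Cxcl12*, *B3gat3* and *Chpf*), and none that was called was reversed. In TGF-β against GDF15 the only alternative examined for the list genes was the ratio of FPKM, without the added 1 FPKM.

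No paired analysis was possible because the design holds 1 pooled library for each treatment, which also means that leaving out a library was not run. Variation between cultures is not measured in these data, and the intervals cover counting error on an estimated depth only.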
